A study of Homo sapiens with 8 samples.

Results

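The loci of 10 genes of the TEAD-YAP system were examined in 8 ATAC-seq libraries of U2OS cells, a human osteosarcoma line. ATAC-seq marks open chromatin by the insertion of sequencing adapters with the transposase Tn5. The genes were the transcription factors TEAD1, TEAD2, TEAD3 and TEAD4, the coactivators YAP1 and WWTR1 (the gene of TAZ), and the target genes CCN1 (CYR61), CCN2 (CTGF), ANKRD1 and AMOTL2. A region, that is a distinct interval of a library's peak list, was a member if it overlapped the span of one of these genes extended by 20 kb on each side (GENCODE release 44, build hg38). This gave 1020 member regions of 1440417 over the 8 lists. Regions of different libraries that overlapped by at least 1 bp were joined into sites, and 340 of 548046 sites were members. Of the 340 sites, 49 had a region in all 8 lists and could be tested (14.4%, against 11% of all sites), and 291 did not. A region in 1 list only was all there was at 198 member sites (58.2%), against 60.5% of all sites.

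The 4 groups held 2 biological replicates each. They were unchallenged wild-type (WT) cells, WT cells 3 h after UV at 20 J per square metre, unchallenged ASH1L-/- cells and ASH1L-/- cells 3 h after the same dose. ASH1L encodes a histone methyltransferase, and the ASH1L-/- cells came from isolated colonies of CRISPR/Cas9-edited U2OS cells, so a genotype difference cannot be told apart from a difference of the clone. The design asks whether chromatin opened after UV and whether ASH1L had a part in it.

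TEAD proteins bind DNA but carry little activating power of their own, which YAP1 and TAZ provide when they enter the nucleus. The Hippo kinase cascade, with STK3, STK4, LATS1 and LATS2, phosphorylates YAP1 and TAZ and holds them in the cytoplasm. CCN1 and CCN2 encode secreted matrix proteins, ANKRD1 a stress-induced ankyrin repeat protein and AMOTL2 an angiomotin that binds YAP1 in turn, and all 4 are standard readouts of the pathway. TEAD factors often share enhancers with AP-1.

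The lists held between 158198 and 220783 regions, and between 103 and 137 of them were members. Mean pileup over the genome, a measure of depth, ran in WT cells from 1.74 to 2.10 without UV and from 2.53 to 2.67 post UV. In ASH1L-/- cells it was 5.87 and 1.39 without UV and 2.45 and 2.81 post UV. Replicate 1 of unchallenged ASH1L-/- cells was thus the deepest, and every UV library was deeper than the 3 remaining unchallenged ones. As markers of the cell type, promoters of VIM, CD44, FN1, RUNX2 and COL1A1 had a site in all 8 lists, and that of TWIST1 in 2 lists. Of markers of other cells, CD3E had none and PTPRC and ALB a site in 1 list each, whereas the epithelial genes EPCAM and CDH1 had promoter sites in all 8 lists.

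The following windows from hg38 belong to the sites on which the results turn: the ANKRD1 promoter and a site upstream of it, the 300 bp before the CCN2 start, the CCN1 promoter and a site that appeared after UV, and an AMOTL2 site that appeared after UV. Each is read in the direction of its gene. Capitals mark the TEAD letters GGAATG and the AP-1 letters TGANTCA, searched on both strands.
ANKRD1 promoter, chr10:90921100-90921399, minus strand: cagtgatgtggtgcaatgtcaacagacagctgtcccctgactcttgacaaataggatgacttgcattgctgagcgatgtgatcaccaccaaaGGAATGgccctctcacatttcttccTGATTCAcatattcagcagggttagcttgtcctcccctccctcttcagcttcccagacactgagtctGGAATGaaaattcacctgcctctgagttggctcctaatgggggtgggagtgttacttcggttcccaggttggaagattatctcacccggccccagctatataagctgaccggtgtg
ANKRD1 9.4 kb upstream, chr10:90930292-90930591, minus strand: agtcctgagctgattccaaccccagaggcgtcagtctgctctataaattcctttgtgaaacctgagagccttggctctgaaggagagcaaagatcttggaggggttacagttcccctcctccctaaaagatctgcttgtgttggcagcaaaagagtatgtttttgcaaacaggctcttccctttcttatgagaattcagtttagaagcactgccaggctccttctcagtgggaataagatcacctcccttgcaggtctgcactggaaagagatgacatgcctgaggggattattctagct
CCN2 promoter, chr6:131951373-131951672, minus strand: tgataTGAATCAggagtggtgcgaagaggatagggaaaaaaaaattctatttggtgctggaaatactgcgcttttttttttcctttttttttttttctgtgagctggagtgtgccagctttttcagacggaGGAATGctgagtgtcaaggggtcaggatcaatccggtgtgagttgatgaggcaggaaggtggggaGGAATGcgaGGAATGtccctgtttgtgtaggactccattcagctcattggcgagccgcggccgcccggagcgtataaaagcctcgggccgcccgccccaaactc
CCN1 promoter, chr1:85580446-85580745, plus strand: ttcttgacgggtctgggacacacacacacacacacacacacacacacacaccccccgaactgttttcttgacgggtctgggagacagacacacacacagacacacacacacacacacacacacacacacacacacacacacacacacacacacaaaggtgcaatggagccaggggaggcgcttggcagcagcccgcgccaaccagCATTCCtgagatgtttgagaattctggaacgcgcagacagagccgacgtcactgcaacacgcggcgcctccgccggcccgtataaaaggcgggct
CCN1 8.6 kb upstream, chr1:85571976-85572275, plus strand: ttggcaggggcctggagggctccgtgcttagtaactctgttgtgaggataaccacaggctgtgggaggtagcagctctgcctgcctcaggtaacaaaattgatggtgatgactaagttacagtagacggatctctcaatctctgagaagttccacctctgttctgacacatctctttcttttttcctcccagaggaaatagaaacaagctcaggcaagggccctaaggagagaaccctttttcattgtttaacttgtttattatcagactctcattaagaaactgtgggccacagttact
AMOTL2 4.4 kb upstream, chr3:134378713-134379012, minus strand: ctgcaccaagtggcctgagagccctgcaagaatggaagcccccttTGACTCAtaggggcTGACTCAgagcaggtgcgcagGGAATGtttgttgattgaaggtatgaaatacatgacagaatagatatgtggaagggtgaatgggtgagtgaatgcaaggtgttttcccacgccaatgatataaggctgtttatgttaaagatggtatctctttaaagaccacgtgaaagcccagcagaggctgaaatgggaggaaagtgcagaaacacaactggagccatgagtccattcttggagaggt

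The ANKRD1 promoter held the TEAD letters 2 times and the AP-1 letters once. The 300 bp before the CCN2 start held them 3 times and once, but this window is not centred on a summit as the other printed ones are. The CCN1 promoter window opens with long CA repeats. It held the TEAD letters once and the AP-1 letters not at all. Neither the ANKRD1 upstream site nor the CCN1 upstream site held either set of letters. In 300 bp around the summit, 13 of the 49 member sites found in all 8 lists held the TEAD letters (26.53%), against 25.39% of all 60323 sites found in all 8 lists. The AP-1 letters stood in 28.57% of these member sites and in 37.94% of all such sites. Such a match is a description of the letters and not a binding site.

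All 10 genes had a promoter site, within 1 kb of an annotated start of the gene, in all 8 lists. Among 19962 protein-coding genes 13272 did (66.49%). Where a gene had several such promoter sites, the one nearest its canonical start is given. The percentile of fold enrichment within the library's own list served to place each site, since the lists were not scaled to one another. The ANKRD1 promoter was the strongest. In WT cells it stood at 98.5 and 98.6 without UV and at 99.4 and 98.4 post UV. In ASH1L-/- cells it stood at 99.5 and 99 without UV and at 99.1 and 99.4 post UV. The site at TEAD2, which also lies within 1 kb of a start of DKKL1, came next with 84 to 98.2, followed by the WWTR1 promoter with 76 to 96.1. The promoters of CCN2 (70.7 to 90) and TEAD4 (59.6 to 91.3) came after these, and the ranges of TEAD1, TEAD3, YAP1, CCN1 and AMOTL2 overlapped one another, with lowest values between 27.9 at CCN1 and 49.5 at AMOTL2. At all 10 promoters the lowest of the 8 values was that of replicate 2 of the WT cells post UV, and its part in the UV differences at promoters was not tested beyond leaving it out.

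**Figure D1:**
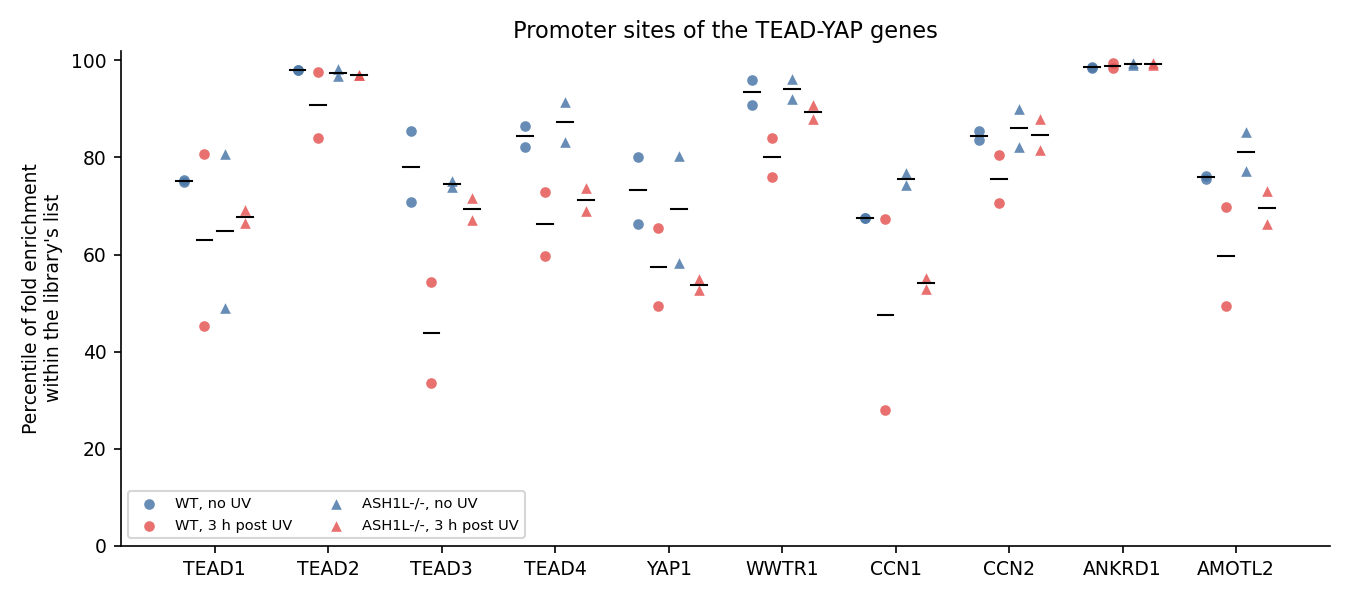
Percentile of fold enrichment within each library's list (vertical axis, 0 to 100) at one promoter site of each of the 10 genes (horizontal axis). Each symbol is a library, circles WT and triangles ASH1L-/-, blue unchallenged and red 3 h post UV, and black bars are means of 2 libraries. The ANKRD1 promoter lay between 98.4 and 99.5 in all 8 libraries, and the CCN1 promoter between 27.9 and 76.7.

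UV difference was tested at the 49 member sites on rank scores, which are the percentiles turned into normal scores, with limma over all 60323 sites. At a Benjamini-Hochberg adjusted p below 0.05, 1 member site was higher and 5 were lower 3 h post UV. Over all sites 4.65% were higher and 5.95% lower, beside which 1 and 5 of 49 stand. At an unadjusted p below 0.05 there were 16 member sites, 3 higher and 13 lower, and 27.7% of all sites. Centring the percentiles on each library's median, an alternative chosen after seeing the data, moved the split to 3 higher and 4 lower. The split turned to 8 higher and 3 lower with sites in at least 4 lists, to 2 higher and 1 lower with regions of q below 0.05, and to 5 higher and 2 lower without replicate 1 of unchallenged ASH1L-/- cells, so no direction is given for the members as a group. The calls leaned on single libraries. Without replicate 1 of the ASH1L-/- cells post UV none of the 49 sites passed, and without replicate 2 of either UV group 2 passed.

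The fold enrichment divides the reads at a summit by a local background, so a site whose surroundings change with it moves little in rank. The numbers of reads stacked at the summit (the pileup) and the background were therefore recovered from the fold enrichment and p-value of each region. Pileups are given below as reads and as a relative pileup, divided by the library's median over the 60323 sites, which was between 22 and 81 reads. On log2 pileup, 4 member sites were higher and 11 lower post UV at an adjusted p below 0.05 (limma), where 10.7% of all sites were higher and 11.8% lower. The median difference over all sites was -0.10 on this scale and over the 49 member sites -0.16. By gene, the calls were 2 lower sites each at ANKRD1, CCN2 and AMOTL2, 3 lower and 1 higher at WWTR1, 1 lower each at TEAD1 and TEAD3, and 1 higher each at TEAD4, YAP1 and CCN1. Neither of the 2 sites at TEAD2 passed.

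**Figure D2:**
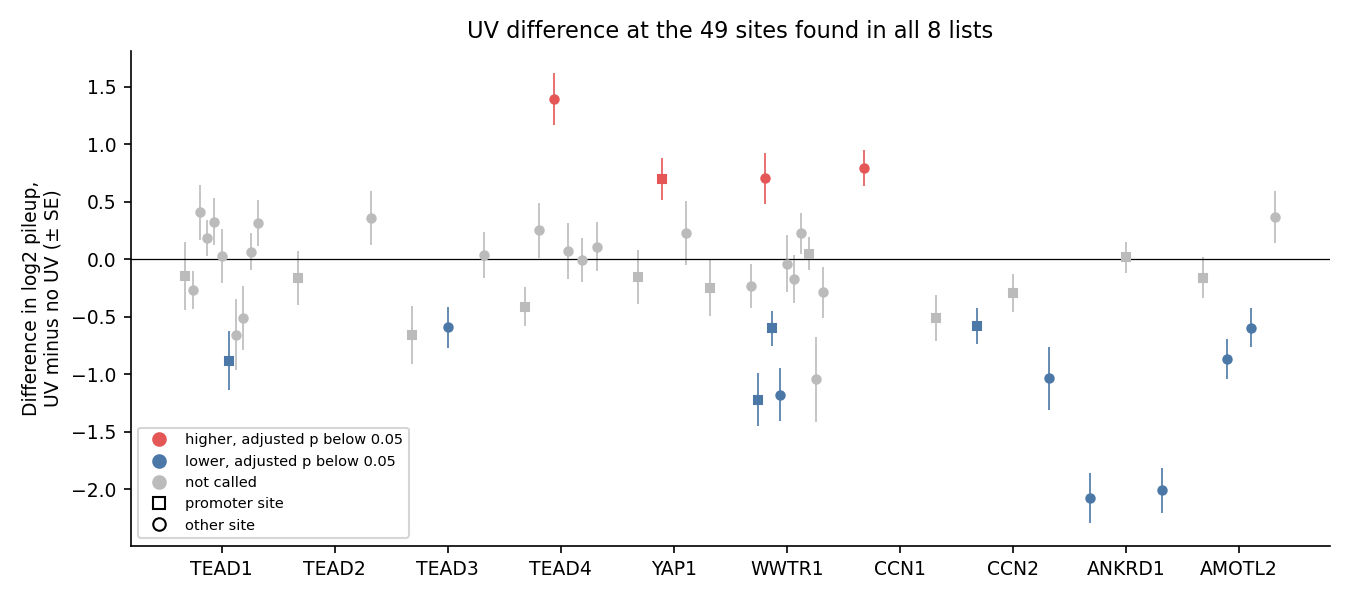
Difference in log2 pileup between UV and no UV, ± SE (vertical axis), at each of the 49 member sites found in all 8 lists, ordered within a gene by position. Squares are promoter sites, red and blue mark sites that were higher or lower at an adjusted p below 0.05, and grey marks the others. Both ANKRD1 flanking sites lie near -2 while the ANKRD1 promoter lies at 0.01.

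Of the transcription factors, TEAD4 had the site that rose most. It lay inside the gene, 39.6 kb from the canonical start. Its pileup in WT cells was 27 and 24 reads without UV and 93 and 165 post UV, and in ASH1L-/- cells 29 and 7 without UV and 63 and 51 post UV. The relative pileup was 0.931 and 0.727 against 2.16 and 2.04 in WT cells, and 0.527 and 0.318 against 1.31 and 0.927 in ASH1L-/- cells. Within each genotype, both UV libraries thus lay above both unchallenged ones. The site rose 2.62-fold in pileup (log2 difference 1.39, SE 0.23, adjusted p = 0.000669, limma) and by 0.96 in rank score (SE 0.21, adjusted p = 0.0121, limma). It passed on pileup in all 10 fits with or without a single library or the replicate number, and on rank in 8 of 10. The TEAD4 promoter, 0.6 kb upstream of the canonical start, went the other way. Its percentile was 86.5, 82.1, 91.3 and 83.2 in the unchallenged libraries and 72.8, 59.6, 73.6 and 69 post UV, and it fell by 0.59 in rank score (SE 0.17, adjusted p = 0.0424, limma). In pileup the difference at this promoter was -0.41 (SE 0.17, adjusted p = 0.0926, limma), and the rank call held in 5 of 10 fits.

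TEAD3 had a site 11.4 kb into the gene (chr6:35484833-35486498) that stood at percentiles 95, 91.7, 93.6 and 92.8 in the unchallenged libraries and at 82.7, 70.5, 85.5 and 83.6 post UV. The 2 sets of libraries did not overlap. Here and at the other sites, the share of all sites whose percentiles or pileups separate in this way was not counted. The site fell by 0.62 in rank score (SE 0.15, adjusted p = 0.0192, limma) and 1.51-fold in pileup (log2 difference -0.59, SE 0.18, adjusted p = 0.029, limma), the former in 7 and the latter in 4 of 10 fits. Its 2 other tested sites did not pass. The TEAD3 promoter had a log2 pileup difference of -0.66 (SE 0.25, adjusted p = 0.0755, limma).

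TEAD1, with 114 sites in a window of 310.317 kb, had 11 tested sites. A site at an internal start, 154 kb into the gene, fell 1.84-fold in pileup (log2 difference -0.88, SE 0.26, adjusted p = 0.0258, limma). It held few reads, between 11 and 36, and the call was made in 7 of 10 fits. The relative pileup was 0.414 and 0.545 without UV and 0.465 and 0.346 post UV in WT cells, which overlap, and 0.654 and 1.05 against 0.229 and 0.364 in ASH1L-/- cells, which do not. The strongest site of TEAD1 apart from its promoters, 72.4 kb into the gene, stood at percentiles 93.5 to 95.8 in the unchallenged libraries and 97.2 to 98.8 post UV. These ranges did not overlap, but the site passed on neither measure. The rank score difference was 0.44 (SE 0.15, adjusted p = 0.0691, limma) and the log2 pileup difference 0.19 (SE 0.16, adjusted p = 0.424, limma).

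Of the coactivators, YAP1 had 4 tested sites, and the one 1.3 kb into the gene rose 1.62-fold in pileup (log2 difference 0.69, SE 0.18, adjusted p = 0.0146, limma). Its relative pileup was 0.724, 0.727, 1 and 0.864 in the unchallenged libraries and 1.4, 1.35, 1.25 and 1.33 post UV. All 4 UV libraries lay above all 4 unchallenged ones, although the call was made in only 5 of 10 fits and the rank score difference was 0.16 (adjusted p = 0.586, limma). The site at the YAP1 start itself had a log2 pileup difference of -0.15 (SE 0.24, adjusted p = 0.677, limma).

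WWTR1 had 11 tested sites. Its canonical promoter stood at percentiles 96, 90.9, 96.1 and 92.1 without UV and 84.1, 76, 90.8 and 87.9 post UV. This promoter fell 1.52-fold in pileup (log2 difference -0.60, SE 0.15, adjusted p = 0.0119, limma), in 9 of 10 fits, and by 0.51 in rank score with an adjusted p of 0.0513. A promoter site of the gene's most distant start, 78.5 kb upstream of the canonical one, fell 2.33-fold in pileup (log2 difference -1.22, SE 0.23, adjusted p = 0.00198, limma) and by 0.88 in rank score (SE 0.23, adjusted p = 0.0271, limma). It was a small site of 10 to 28 reads, with 20, 28, 20 and 10 reads without UV and 10, 25, 10 and 12 post UV. Relative to the library's median, the 4 UV values of 0.208 to 0.309 lay below the 4 unchallenged values of 0.364 to 0.849. A site 36.7 kb into the gene fell 2.26-fold in pileup (adjusted p = 0.00244, limma), and a site 20.4 kb upstream of the canonical start rose 1.63-fold (adjusted p = 0.0347, limma). The former was called in 10 and the latter in 6 of 10 fits.

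Among the target genes, ANKRD1 held the 2 largest UV differences of the 49 sites in log2 pileup, though not in rank score. It had 3 tested sites: the promoter, a site 9.4 kb upstream (chr10:90930031-90931562) and a site 9.4 kb downstream of the start, at the 3′ end of the gene (chr10:90911092-90912181). The promoter had a pileup of 214, 200, 377 and 157 reads without UV and 303, 526, 336 and 391 post UV. Relative to the library's median these were 7.38, 6.06, 6.85 and 7.14 without UV and 7.05, 6.49, 7 and 7.11 post UV. The 2 sets overlapped fully, with a log2 difference of 0.01 (SE 0.14, adjusted p = 0.952, limma).

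The upstream ANKRD1 site in WT cells had a relative pileup of 4.66 and 2.73 without UV and 0.698 and 0.988 post UV. In ASH1L-/- cells it was 2.95 and 4.18 without UV and 0.729 and 0.982 post UV. In reads these were 135 and 90 against 30 and 80, and 162 and 92 against 35 and 54. The site fell 4.22-fold (log2 difference -2.08, SE 0.22, adjusted p = 3.79e-05, limma), and 184 of the 60323 sites fell further (0.305%).

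The downstream ANKRD1 site had a relative pileup of 2 and 1.45 against 0.465 and 0.531 in WT cells, and of 2.53 and 2.82 against 0.583 and 0.545 in ASH1L-/- cells. It fell 4.03-fold (log2 difference -2.01, SE 0.19, adjusted p = 2.24e-05, limma). Both calls were made in all 10 fits on pileup. In rank score the upstream site fell short of the threshold (-0.52, SE 0.17, adjusted p = 0.0625, limma) and the downstream site passed (-0.56, SE 0.15, adjusted p = 0.0331, limma) in 3 of 10 fits.

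The recovered background of these ANKRD1 flanks moved with the summits. Its 10 kb window includes the reads of the site itself, so it is not a separate measure of the surroundings. The density of reads in the 10 kb around the summit, relative to the genome's mean, was 6.35, 6.36, 4.34 and 7.11 without UV at the upstream site and 1.82, 2.63, 2.1 and 2.28 post UV. At the downstream site it was 3.17, 2.47, 2.85 and 4.07 without UV and 1.22, 1.17, 1.21 and 1.2 post UV. Around the promoter it was 6.01, 5.87, 3.82 and 5.97 without UV and 5.74, 9.27, 6.74 and 6.87 post UV, with overlap of the 2 sets. Other sites within 5 Mb of the locus had a median log2 pileup difference of -0.07 over 221 sites.

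Ratios within a library, which need no scaling between libraries, separated in the same way. The upstream ANKRD1 site had 0.631, 0.45, 0.43 and 0.586 of the promoter's pileup without UV and between 0.099 and 0.152 of it post UV. For the downstream site the ratio was 0.24 to 0.395 without UV and 0.066 to 0.0833 post UV. Both differences had p = 0.0286 (two-sided exact permutation test, 4 against 4 libraries), the smallest that 70 assignments of the libraries allow. Of 4 such ratios that were computed, all had this p, and it was also 0.0286 after Benjamini-Hochberg adjustment over the 4. The ratios were chosen after the pileups had been seen, so their p-values are no added support.

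**Figure D3:**
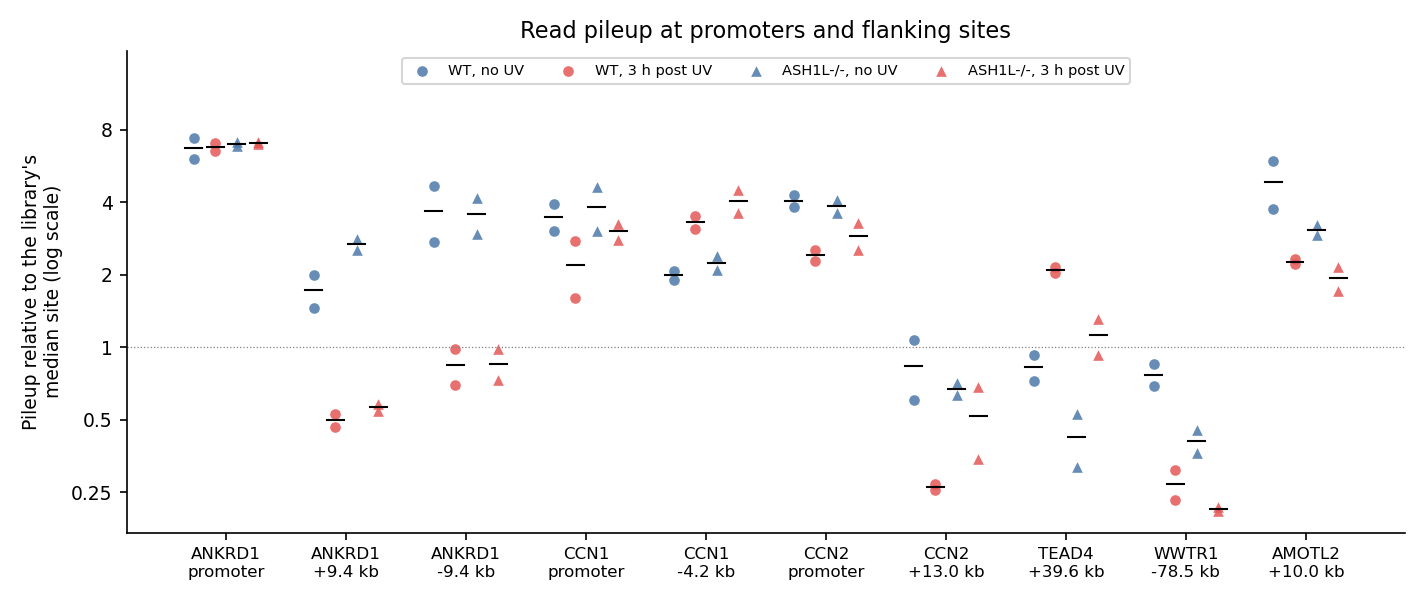
Read pileup relative to the median of the library's 60323 sites (vertical axis, log scale) at 10 member sites (horizontal axis, with the distance from the canonical start). Circles are WT and triangles ASH1L-/- libraries, blue unchallenged and red 3 h post UV, and black bars are means of 2 libraries. The ANKRD1 promoter stays between 6.06 and 7.38 while its flanking sites fall, and the CCN1 site 4.2 kb upstream and the TEAD4 site rise.

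CCN1 had 2 tested sites that moved apart. A site 4.2 kb upstream of the start (chr1:85576399-85576972) had a relative pileup of 2.07, 1.91, 2.38 and 2.09 without UV and 3.51, 3.1, 4.5 and 3.6 post UV. It rose 1.73-fold (log2 difference 0.79, SE 0.16, adjusted p = 0.0024, limma), in all 10 fits on pileup, with a rank score difference of 0.47 (SE 0.25, adjusted p = 0.242, limma). The CCN1 promoter had a relative pileup of 3.93, 3.03, 3.04 and 4.64 without UV and 2.77, 1.6, 3.25 and 2.8 post UV, a log2 difference of -0.51 (SE 0.20, adjusted p = 0.0857, limma). The upstream site had 0.526, 0.63, 0.784 and 0.451 of the promoter's pileup without UV and 1.27, 1.93, 1.39 and 1.29 post UV (p = 0.0286, two-sided exact permutation test, 4 against 4 libraries). The smaller of the 2 sites without UV was thus the larger one post UV in all 4 libraries. The ratio of these 2 sites was among the 4 chosen after the pileups had been seen, so its p is no added support.

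CCN2 had 3 tested sites, of which 2 fell in pileup. Its promoter had a relative pileup of 3.83, 4.27, 3.62 and 4.09 without UV and 2.28, 2.54, 3.27 and 2.55 post UV. It fell 1.5-fold (log2 difference -0.58, SE 0.15, adjusted p = 0.0148, limma), in 7 of 10 fits, and its rank score differed by -0.19 (adjusted p = 0.474, limma). A site 13 kb downstream of the start fell 2.05-fold (log2 difference -1.04, SE 0.27, adjusted p = 0.0144, limma), with 31, 20, 39 and 14 reads without UV and 11, 22, 33 and 19 post UV. The relative pileup of this downstream site was 1.07 and 0.606 without UV and 0.256 and 0.272 post UV in WT cells, which do not overlap. In ASH1L-/- cells it was 0.709 and 0.636 against 0.688 and 0.345, which do. In rank score the site did not pass (limma), with calls in 2 of 10 fits. Leaving out replicate 2 of either ASH1L-/- group, or replicate 1 of the WT cells post UV, ended both pileup calls. Leaving out replicate 1 of unchallenged ASH1L-/- cells ended that of the downstream site.

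AMOTL2 had 4 tested sites. A site 10 kb into the gene had a relative pileup of 5.93, 3.76, 2.93 and 3.23 without UV and 2.21, 2.32, 1.71 and 2.16 post UV. It fell 1.83-fold (log2 difference -0.87, SE 0.18, adjusted p = 0.00295, limma), in all 10 fits on pileup, and by 0.52 in rank score (SE 0.15, adjusted p = 0.0371, limma), in 4 of 10. A second site, 16.3 kb into the gene, fell 1.51-fold in pileup (log2 difference -0.60, SE 0.17, adjusted p = 0.0217, limma), in 6 of 10 fits. The AMOTL2 promoter had a log2 pileup difference of -0.16 (SE 0.18, adjusted p = 0.551, limma).

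The 10 promoters nearest the canonical starts were lower post UV in rank score at 9 of 10 genes, ANKRD1 being the exception, and the TEAD4 promoter passed the threshold, where 6.36% of all promoter sites were called lower and 1.17% higher. Over all 15133 promoter sites of protein-coding genes that were in all 8 lists, 74.63% had a negative difference, with a median of -0.19, and the median of the 10 promoters was -0.43. In log2 pileup 9 of 10 were again lower, with a median of -0.29, where 65.9% of all promoter sites were lower, with a median of -0.12. The promoters of WWTR1 and CCN2 passed on this measure, on which 6.47% of all promoter sites were called lower and 4.55% higher.

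Sites could also appear or vanish. A site in all 4 UV libraries and in none of the unchallenged ones was found 6 times among the 340 member sites (1.76%), against 0.686% of all sites. A site in all 4 unchallenged libraries and in none of the UV libraries was found once (0.294%), against 0.0967% of all sites. CCN1 held 3 of the 6 and also the lost one, AMOTL2 held 2 and TEAD1 the remaining one.

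At CCN1, the gained site 8.6 kb upstream of the start (chr1:85571818-85572273) had 54, 94, 56 and 53 reads in the 4 UV libraries, at percentiles of 59.7, 48, 44.2 and 43.6. A gained site 0.8 kb downstream of the start had 67, 145, 84 and 95 reads. The third, 18.5 kb downstream, was small, with 18, 19, 9 and 9 reads. The lost CCN1 site lay 3.7 kb downstream, across the 3′ end of the gene, and had 58, 37, 67 and 39 reads in the unchallenged libraries.

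At AMOTL2, the gained site 4.4 kb upstream of the start held the TEAD letters once and the AP-1 letters 2 times. It had 43 and 92 reads in WT cells post UV and 19 and 19 in ASH1L-/- cells post UV, at percentiles of 49, 49.9, 1.61 and 0.091. In the ASH1L-/- libraries it was thus among the weakest regions of the lists. The other gained AMOTL2 site, 5 kb into the gene, had 25, 68, 38 and 28 reads, and the TEAD1 site, 194.6 kb into the gene, had 9, 23, 9 and 10. Since 3 of the 4 unchallenged libraries were shallower than every UV library, an absent region is not the absence of open chromatin, and the part of depth in these counts was not tested.

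**Figure D4:**
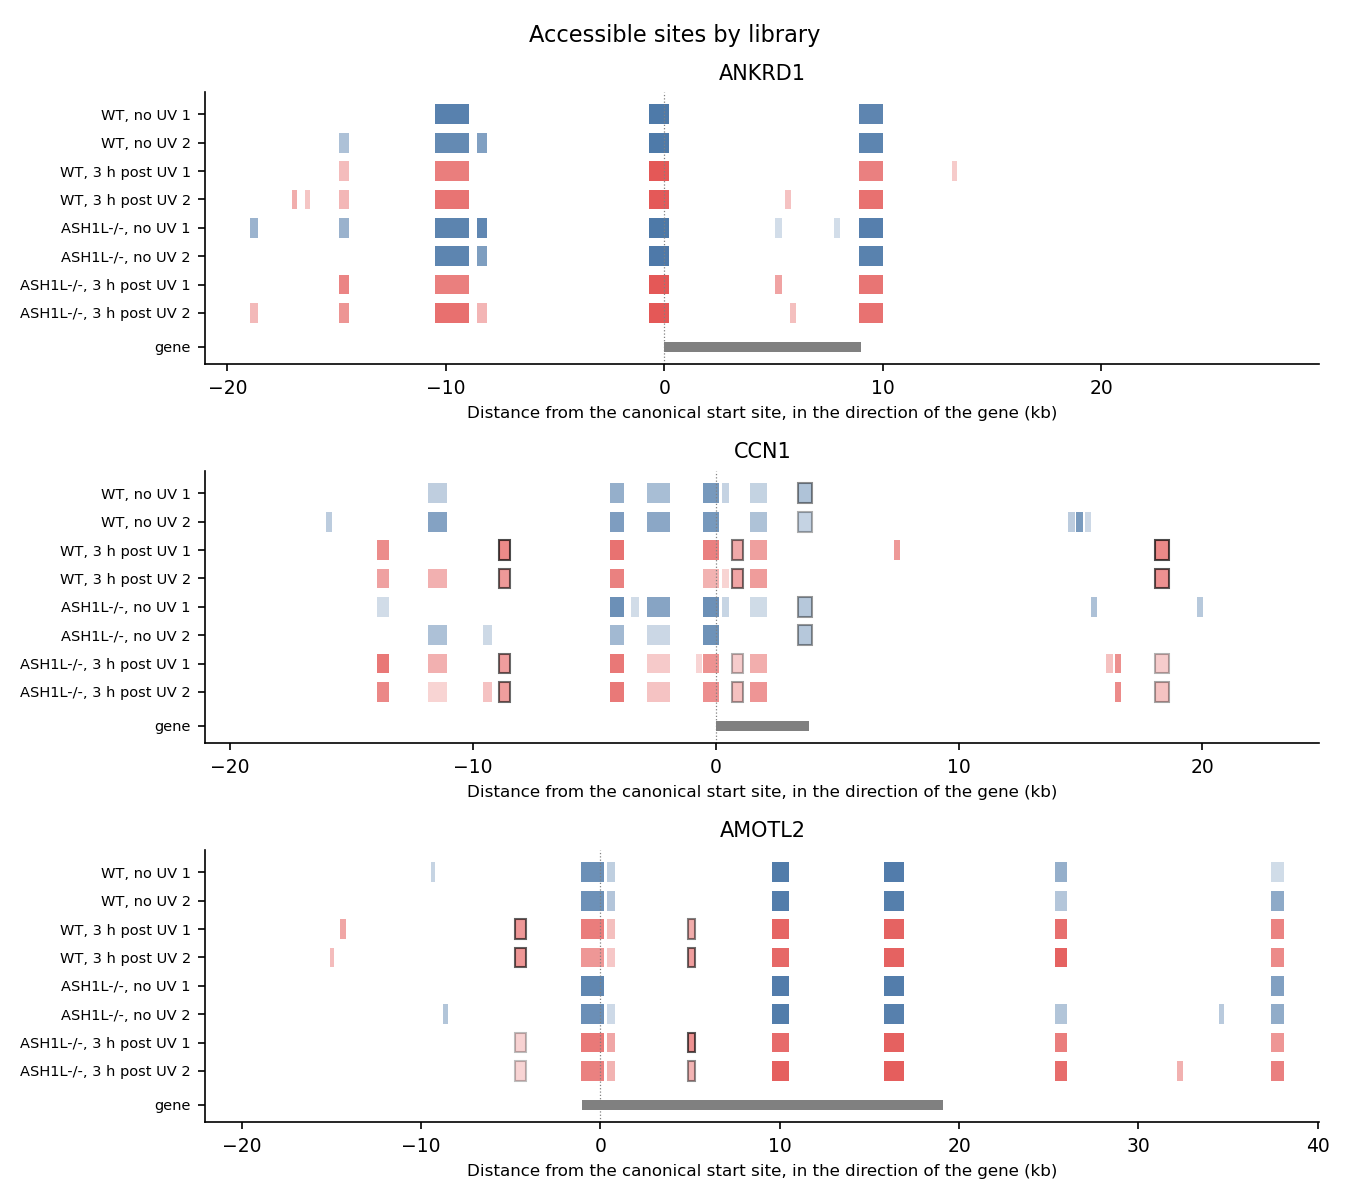
Sites present in each of the 8 libraries (rows) at ANKRD1, CCN1 and AMOTL2, against the distance in kb from the canonical start site in the direction of the gene (horizontal axis). Each bar is a site, blue in unchallenged and red in UV libraries and darker at a higher percentile, and the grey bar is the gene. Black outlines mark sites that were in all 4 UV libraries and no other, or in all 4 unchallenged libraries and no other: 4 at CCN1 and 2 at AMOTL2.

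No member site separated the genotypes. The number present in all 4 ASH1L-/- libraries and in no WT library was 0 of 340, where the background was 0.186%, and the number present in WT alone was 0, where it was 0.0768%.

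In rank score, none of the 49 member sites differed between ASH1L-/- and WT cells at an adjusted p below 0.05 (limma), and 6 did at an unadjusted p below 0.05. Over all sites 0.103% were higher and 0.0564% lower, and 10.2% had an unadjusted p below 0.05. The lowest adjusted p was 0.283. The 3 sites of lowest p, singled out after their values were seen, were all at TEAD4, and their rank score differences were 0.91 (SE 0.29), -0.56 (SE 0.21) and -0.81 (SE 0.33).

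In log2 pileup, 7 member sites were lower in ASH1L-/- cells and none was higher, where 4.33% of all sites were lower and 3.74% higher. They were 5 sites at the WWTR1 locus and 2 at that of TEAD4. Of those at WWTR1, the site 94.7 kb upstream of the canonical start lies at a promoter of another gene, COMMD2. The WWTR1 site 76 kb into the gene had a relative pileup of 2.69, 3.58, 4.26 and 3.43 in WT cells, and of 1.64, 1.91, 2.33 and 1.64 in ASH1L-/- cells. It was 1.85-fold lower in ASH1L-/- cells (log2 difference -0.89, SE 0.18, adjusted p = 0.01, limma), and the 4 WT libraries lay above the 4 others. The site 70.9 kb into WWTR1 was 1.96-fold lower (adjusted p = 0.0146, limma). At TEAD4 the site 39.6 kb into the gene was 1.96-fold lower in ASH1L-/- cells (adjusted p = 0.0203, limma) beside its rise post UV, and the site 75 kb into the gene was 1.95-fold lower (adjusted p = 0.0269, limma). Leaving out single libraries gave between 0 and 9 calls. Without replicate 1 of the WT cells post UV, or without replicate 2 of the ASH1L-/- cells post UV, no site passed.

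The surroundings of these genes were lower as well. At WWTR1 10 of 11 sites had a lower pileup in ASH1L-/- cells, with a median log2 difference of -0.62, and the 134 other sites within 5 Mb had a median of -0.36, 82.09% of them lower. At TEAD4 the median was -0.39 over 6 sites and -0.39 over 320 neighbours, 82.5% of which were lower. At AMOTL2, on the same chromosome as WWTR1, it was -0.36 over 4 sites and -0.40 over 179 neighbours, 84.92% of which were lower. At the other 7 genes the neighbours had medians between -0.17 and 0.13, and over all 60323 sites the median was 0.005. Sites around WWTR1, TEAD4 and AMOTL2 thus also had lower pileups in ASH1L-/- cells. The 7 called sites, at -0.63 to -0.97, lay below the medians of their neighbours. They were selected for a low value, so this place was set by the selection and says nothing of a difference beyond the surroundings. None of the 4 AMOTL2 sites passed. A genotype difference cannot be told apart from a property of the clone.

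**Figure D5:**
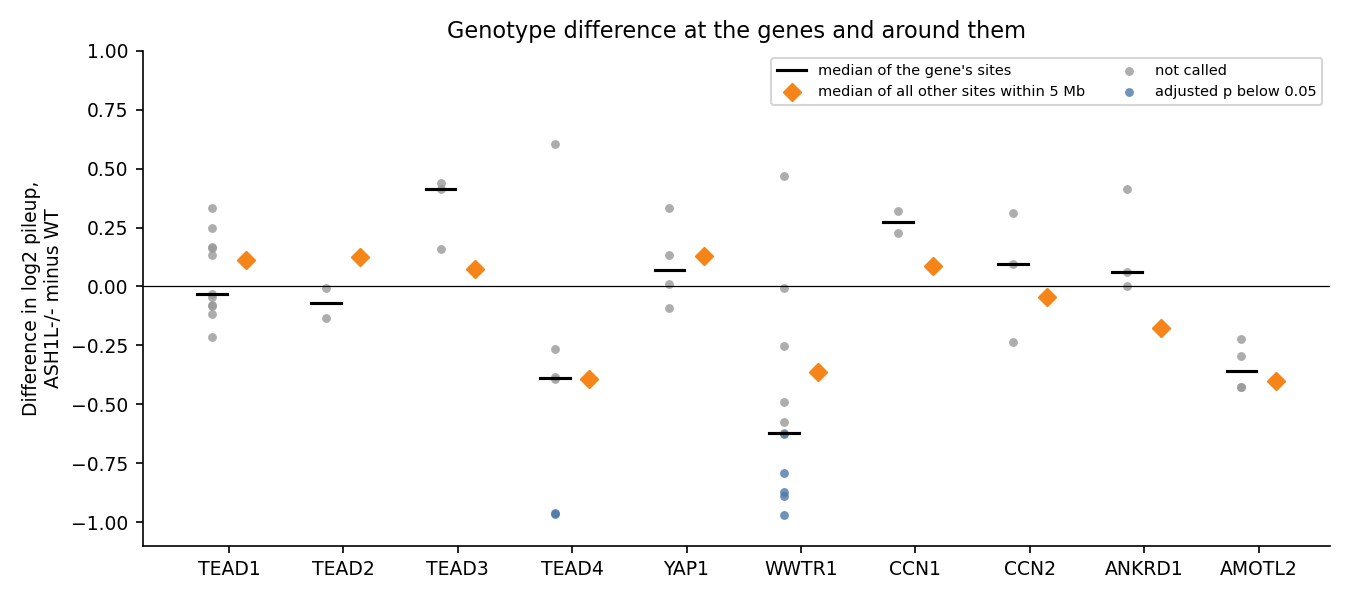
Difference in log2 pileup between ASH1L-/- and WT cells (vertical axis) at the tested sites of each gene (dots, blue where the adjusted p was below 0.05), with their median (black bar) and the median of all other sites within 5 Mb of the locus (orange diamonds). At TEAD4, WWTR1 and AMOTL2 the diamonds lie between -0.40 and -0.36, and at the other 7 genes between -0.17 and 0.13.

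The UV difference itself was compared between genotypes at each site. None of the 49 member sites, and none of all 60323 sites, had a different UV response in ASH1L-/- and WT cells at an adjusted p below 0.05 in rank score or in log2 pileup (limma). At an unadjusted p below 0.05 there were 2 member sites in rank score, against 2.8% of all sites. They were the TEAD1 site 154 kb into the gene, with a difference of -0.97 (SE 0.44), and the CCN2 site 13 kb downstream of its start, with a difference of 1.01 (SE 0.40). In log2 pileup there were also 2, at the same TEAD1 site and at the TEAD3 site 11.4 kb into the gene, against 4.19% of all sites. The count over all sites turned on 1 library. Without replicate 2 of unchallenged WT cells, 66 sites were called in rank score (1 higher and 65 lower) and 374 higher and 737 lower in log2 pileup, none of them a member site.

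The number of regions per locus did not separate the groups at any of the 10 genes with the flank of 20 kb. AMOTL2 had 7, 6, 4 and 8 regions without UV and 10, 9, 8 and 9 post UV (p = 0.0571, two-sided exact permutation test, 4 against 4 libraries). WWTR1 had 29, 31, 21 and 25 regions in WT and 24, 15, 18 and 20 in ASH1L-/- cells (p = 0.0571, two-sided exact permutation test, 4 against 4 libraries). Other counts did separate them before adjustment (p = 0.0286, two-sided exact permutation test, 4 against 4 libraries). AMOTL2 was higher post UV with a flank of 10 kb, with regions of q below 0.05 and in bases covered, TEAD4 was higher post UV with regions of q below 0.05, and WWTR1 was lower in ASH1L-/- cells relative to the number of regions in the list. None of these passed after adjustment. Among 19970 protein-coding loci with the flank of 20 kb, the libraries did not overlap by UV in 1.37% upward and 1.1% downward, and by genotype in 1.92% and 1.98%. Upward by UV the share was 1.2% with a flank of 10 kb, 2.91% with regions of q below 0.05 and 10.8% in bases covered. Downward by genotype it was 4.56% relative to the number of regions in the list. None of these loci passed after Benjamini-Hochberg adjustment. At an unadjusted p below 0.05 there were, with the flank of 20 kb, 493 by UV (2.47%) and 778 by genotype (3.9%). The smallest p the design allows is 0.0286.

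Of the other genes of the pathway, 18 regulators were examined, with the kinases, scaffolds and VGLL cofactors. A promoter site in all 8 lists was found for 17 of them, and VGLL1 had none in any list. Post UV, 2 of the 26 promoter sites of these 17 genes fell in rank score and none rose (limma). Of all promoter sites, 6.36% were called lower and 1.17% higher. The 2 sites were those of LATS2, the kinase that phosphorylates YAP1 (-0.53, SE 0.16, adjusted p = 0.0495, limma), and VGLL3, a cofactor that binds TEAD (-0.64, SE 0.19, adjusted p = 0.0479, limma). Among 17 further genes described as YAP-TEAD targets, 13 had such a site, and CCDC80, DOCK5, FOXF2 and NT5E had no single site in all 8. Of the 21 promoter sites of these 13 genes, 2 fell and none rose in rank score. GADD45A, a growth arrest gene that is also induced by DNA damage, fell by 1.13 (SE 0.17, adjusted p = 0.00214, limma), and ARHGEF17, which encodes a guanine nucleotide exchange factor, by 0.62 (SE 0.17, adjusted p = 0.0339, limma). In log2 pileup this GADD45A site differed by -0.35 and did not pass (adjusted p = 0.161, limma). The median difference was -0.28 over the 26 sites of the regulators and -0.36 over the 21 sites of the targets, beside -0.19 over all promoter sites. The 30 genes of both lists had 47 tested promoter sites. In log2 pileup, 2 of the genes had a promoter site that rose post UV and 5 had one that fell (limma). Counted by site and not by gene, 4.55% of all promoter sites were called higher and 6.47% lower. WWC1, a scaffold of the cascade, rose (0.58, adjusted p = 0.0326, limma), as did a second promoter site of GADD45A (0.63, adjusted p = 0.00719, limma), and AJUBA, ARHGEF17, ASAP1, LATS2 and VGLL4 fell. In rank score this second GADD45A site differed by -0.36 (adjusted p = 0.17, limma), the opposite sign. The genes named from the lists were picked after their values were seen, and the split of the lists thus differed between the measures. Neither list had a call between genotypes in rank score, with 2 and 0 sites at an unadjusted p below 0.05. In log2 pileup WWC1 alone was called, higher in ASH1L-/- cells at 2 promoter sites (0.65 and 1.03, adjusted p = 0.0398 and 0.0115, limma), where 2.07% of all promoter sites were called higher and 3.7% lower. Without replicate 1 of the WT cells post UV, or without either replicate of the ASH1L-/- cells post UV, no gene of the lists was called higher.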

How the data were processed

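Omni-ATAC libraries of U2OS cells were analysed from the deposited peak lists, with 2 libraries in each of 4 groups taken from the sample titles. Per the submitters' processing notes and the study's methods, the authors used cutadapt 1.9.1, Bowtie2 2.4.5 (hg38 without chromosome Y), SAMtools 1.7, bedtools 2.29.2, Picard and MACS2 2.2.7.1, and called peaks in each library without pooling. The deposited values are a fold enrichment, which is a ratio of pileup to local background, −log10 p-values and q-values computed by the authors, and a score, which was not used. None is normalised between libraries. The lists carry no read counts.

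Regions were distinct intervals with the record of highest fold enrichment. Sites and percentiles were built as described above, with Python 3.11.15 and pandas 2.3.3. Pileup and background were solved from (pileup + 1) / (background + 1) and the Poisson p-value. The pileup came out whole, within 0.05 reads, at 100% of the 60323 sites in all 8 libraries. Backgrounds above the genome mean were multiples of 0.015, the step of reads extended to 150 bp over 10 kb. Differences were tested with limma 3.58.1 in R 4.3.3 (4 group means, intensity trend, Benjamini-Hochberg over all sites). In a simulation, a small part of the 60323 sites was given a rank score difference between UV and no UV. A difference of 1 was recovered at 29% and one of 2 at 82% of the sites given it. The adjustment depends on how many sites differ, and far more were called in the data. These shares therefore do not give the power of the tests above. Spread in the limma fits, of rank scores and of log2 pileups alike, was estimated between the libraries of a group.

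The members, lists and tests were chosen with earlier results of these data known. Named sites were, for each gene, the promoter site nearest the canonical start and the strongest other site, all sites that separated the libraries, and all sites past the threshold. For CCN1 the strongest other site by mean percentile was in 1 list only, 15 kb downstream of the start, and is not described further. The values of the strongest other sites of TEAD2, TEAD4, YAP1 and WWTR1 are not given, nor those of every site called between genotypes. Replicate numbers did not pair the libraries (correlations of replicate differences between groups from -0.105 to 0.142). Neighbourhoods, within-library ratios and fits of single libraries on log2 pileup were added after seeing the data. Not every marker gene and site sequence examined is reported here.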

Additional observations from a re-analysis of the deposited data

How the results depend on the processing

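Depth and replication limit these results: 2 libraries a group, and pileups of 7 to 30 reads at the smaller sites. The number of member sites called for UV in rank score was 6. It was 11 on log2 fold enrichment, 15 on log2 pileup, 2 without an intensity trend, 11 with sites in at least 4 lists (97 tested) and 3 with regions of q below 0.05 (47 tested). Flanks of 10 and 50 kb and centred percentiles stayed within 1.5 times. Leaving out single libraries gave 0 to 8 calls in rank score and 8 to 18 on log2 pileup, where the full count was 15. Without replicate 1 of unchallenged ASH1L-/- cells the rank calls were 5 higher and 2 lower, in place of 1 and 5. With a replicate block, 8 member sites were called for UV in rank score (1 higher and 7 lower) and 15 on log2 pileup, which changed no count by over 1.5 times, and the genotype counts were 0 and 7 as before. The replicate numbers do not pair the libraries. The genotype count in rank score was 0 in 16 of 17 alternatives and 7 on log2 pileup, and on log2 pileup it was 0 to 9 without single libraries. The UV by genotype count at member sites was 0 in all 17 alternatives. At the WWTR1 site 81.7 kb into the gene, the genotype difference of -0.63 in log2 pileup was 0.055 in rank score and 0.026 in log2 fold enrichment. The cause was not tested.

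Gained sites numbered 5 to 8 under all 12 alternatives. Lost sites numbered 2 where a region had to cover at least 50% of the site and 1 to 3 without single libraries. Sites of ASH1L-/- cells alone numbered 1 with a flank of 50 kb, 1 with q below 0.05 and 0 to 1 without single libraries, and sites of WT alone 1 with a flank of 50 kb and 0 to 1 without single libraries. No locus count passed after adjustment under any of 5 alternatives. Pathway genes called for UV numbered 4, and 1 without an intensity trend, 7 on log2 pileup (2 higher and 5 lower), 2 with centred percentiles, 1 with sites in at least 4 lists and 1 to 3 without single libraries.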
